A study of Mus musculus with 16 samples.

Results

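The interferon-stimulated and antigen presentation genes described here are a list of 38 genes picked out by symbol in the platform annotation. Of the 38, 36 had a named probe set among 19505 named genes, and each was represented by 1 probe set. The signal of Ifi44 and Nlrc5 was not analysed here. The list was divided by role into 3 sensors of viral RNA, 17 genes of the Ifit and Oas type, 4 genes of RNA-binding and ligase proteins, 2 guanylate-binding proteins, 4 genes of antigen presentation and 6 transcription factors.

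They were measured in BU.MPT, a mouse proximal tubular cell line, on 16 arrays in 4 groups of 4. Control cells stayed in ordinary medium with 4.5 g/L glucose and 10% serum under 21% oxygen. H/R cells (hypoxia/reperfusion) were held for 3 h at about 1% oxygen in medium free of glucose and serum, and were then given both back in normoxia for 1 h. The control+B12 and H/R+B12 groups had the same handling with 0.3 µM cyanocobalamin, a form of vitamin B12, in the medium. The line descends from a mouse that carries a temperature-sensitive viral T antigen under an interferon-inducible class I promoter, so it is a single immortalised line. All 4 groups were grown to near confluence at 39 °C without interferon-gamma, and the labels name no interferon treatment. The H/R groups differ from their controls in oxygen, glucose and serum together, and these cannot be told apart. Whether replicates were separate cultures is not in the labels, and p-values then cover the spread among these arrays alone, which may be technical. Sample titles read B12, whereas the descriptions of replicates 2, 3 and 4 of the treated groups carry rising numbers after the B; these samples were taken as B12.

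As background, cells that sense viral RNA through Ifih1 or Ddx58 signal through Mavs to the factor Irf3, which turns on type I interferon genes. Secreted interferon binds its receptors, the kinases Jak1 and Tyk2 are activated, and a complex that holds Stat2 and Irf9 binds the interferon-stimulated response element (ISRE) of genes such as Ifit1, Isg15 and Rsad2. Interferon-gamma acts through Jak1 and Jak2 on the gamma-activated site (GAS) of genes such as Irf1, and Irf1 in turn drives Tap1, Gbp2 and other genes of peptide loading and cell defence. Tubular cells of the kidney express class I molecules and can be induced to express more by interferons.

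Promoter sequence is shown for 5 members, because these are genes of opposite direction in the results that carry the same element, or the classical GAS target among the factors. Each sequence is the 250 bases before the RefSeq start site (GRCm38.p6), read 5′ to 3′ on the strand of the gene, and capitals mark the motif matches. Ifit3 and Ifit1 each hold 2 ISRE matches, Rsad2 and Gbp2 hold 1 each, all on the opposite strand, and Irf1 holds 1 match to the GAS, whose letters read alike on both strands. The windows are chr19:34583279-34583528 (+) for Ifit3, chr19:34640639-34640888 (+) for Ifit1, chr12:26456453-26456702 (-) for Rsad2, chr3:142620413-142620662 (+) for Gbp2 and chr11:53769764-53770013 (+) for Irf1.
Ifit3: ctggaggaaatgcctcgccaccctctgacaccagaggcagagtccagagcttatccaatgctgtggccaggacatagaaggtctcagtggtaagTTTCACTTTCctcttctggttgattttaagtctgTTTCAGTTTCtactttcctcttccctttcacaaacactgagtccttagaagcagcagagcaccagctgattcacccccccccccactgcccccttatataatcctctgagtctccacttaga
Ifit1: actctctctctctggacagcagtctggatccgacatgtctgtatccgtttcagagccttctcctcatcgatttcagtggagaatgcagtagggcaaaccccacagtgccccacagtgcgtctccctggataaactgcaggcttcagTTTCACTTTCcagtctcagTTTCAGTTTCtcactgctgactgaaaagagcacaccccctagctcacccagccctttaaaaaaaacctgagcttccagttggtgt
Rsad2: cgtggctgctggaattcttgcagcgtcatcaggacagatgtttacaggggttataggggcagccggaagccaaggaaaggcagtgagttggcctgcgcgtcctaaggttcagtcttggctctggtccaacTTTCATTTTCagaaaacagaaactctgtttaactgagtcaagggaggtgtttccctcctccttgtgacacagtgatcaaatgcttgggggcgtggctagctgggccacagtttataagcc
Gbp2: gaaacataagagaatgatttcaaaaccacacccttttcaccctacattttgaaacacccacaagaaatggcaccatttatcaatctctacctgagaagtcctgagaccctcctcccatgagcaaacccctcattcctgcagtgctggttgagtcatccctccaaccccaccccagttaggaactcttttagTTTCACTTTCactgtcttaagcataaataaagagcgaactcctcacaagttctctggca
Irf1: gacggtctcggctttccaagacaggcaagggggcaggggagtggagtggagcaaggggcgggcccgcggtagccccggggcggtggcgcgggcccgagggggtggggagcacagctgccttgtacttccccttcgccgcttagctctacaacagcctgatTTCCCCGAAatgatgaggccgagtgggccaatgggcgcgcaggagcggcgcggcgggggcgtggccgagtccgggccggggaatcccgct

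The ISRE was searched as GAAA, any pair of bases and GAAA again, and the GAS as TTCNNNGAA, on both strands, with overlapping matches counted. Of the 38 members, 30 had a window in the RefSeq table. An ISRE match was found in 12 of the 30 (40%), beside 3.46% of 27025 genes in the table, and a GAS match in 6 of the 30 (20%), beside 8.13%. Members with an ISRE match were Ifit1, Ifit3, Isg15, Rsad2, Oas1a, Oas3, Bst2, Gbp2, Gbp3, B2m, Irf2 and Stat2. Members with a GAS match were Ifit2, Oas1a, Bst2, Eif2ak2, Irf1 and Irf2. Isg15 held 3 overlapping ISRE matches between 78 and 57 bases before its start. The ISRE matches of Ifit1 lay from 104 to 95 and from 85 to 76 bases before the start, and those of Ifit3 from 156 to 147 and from 122 to 113. A match is a description of the letters, and no factor binding was measured.

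Array signal is given as log2 values of robust multi-array averaging (RMA), and differences are in log2 units. Array medians were 5.28 to 5.37 in the 8 arrays without H/R and 5.21 to 5.29 in the 8 with H/R. Negative control features, which match no mouse transcript, had medians of 5.72 to 6.23 per array. Group means of Dhx58, Mx1, Oas1a, Oas2, Oas3, Oasl1 and Irf7 lay below 5.72 in all 4 groups, so these 7 members have little measured signal. Of 23 proximal tubule markers, 15 lay below 5.72 in all groups, including transporters of the mature segment, while Aqp1, Cdh1, Cdh6, Krt8, Krt18, Pax2, Pax8 and Slc4a4 lay above it. Among 18 leukocyte markers 15 were below 5.72 in all groups, Ptprc among them, and Cd14, Csf1r and H2-Ab1 were above it. The mean over the leukocyte list was 4.60 to 4.72 in control arrays and 4.69 to 4.88 after H/R, and Cd14 was higher after H/R by 0.80 ± 0.13 (SE). Ptprc was called higher in H/R+B12 than in control+B12, by 0.93 ± 0.29, with group means of 4.26 and 3.34. The list means of fibroblast markers (7 of 8 below) were 3.43 to 3.66 in control and 3.35 to 3.77 after H/R, and those of endothelial markers (7 of 7 below) were 3.06 to 3.50 and 3.41 to 3.71. The part of such cells in the results was not tested.

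H/R without B12 was compared with control to ask how the list behaves 1 h after oxygen, glucose and serum return. It moved in both directions: 4 members rose and 10 fell at an adjusted p under 0.05, and 22 did not pass. The 4 that rose were Rsad2, Tap1, Gbp2 and Adar. The 10 that fell were Ifit3, Ifit2, Tapbp, Oasl2, Irf3, Ifi35, Usp18, Ddx58, Irf1 and Eif2ak2. The share of members called was 38.9%, beside 17.6% of all 22206 probe sets, with 8.11% of all probe sets higher and 9.54% lower. In each array the median probe set lay below the negative control median, so the share over all probe sets includes many dim ones. Members were also chosen with earlier results of these data known, and the shares were not matched for signal. The median change over the 36 members was -0.10, and over all probe sets -0.02. With 4 arrays in each group, the arrays of control and H/R did not overlap for 13 of the 36, beside 20.9% of all probe sets. In bulk RNA, less RNA per cell and fewer cells that make it cannot be told apart.

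**Figure D1:**
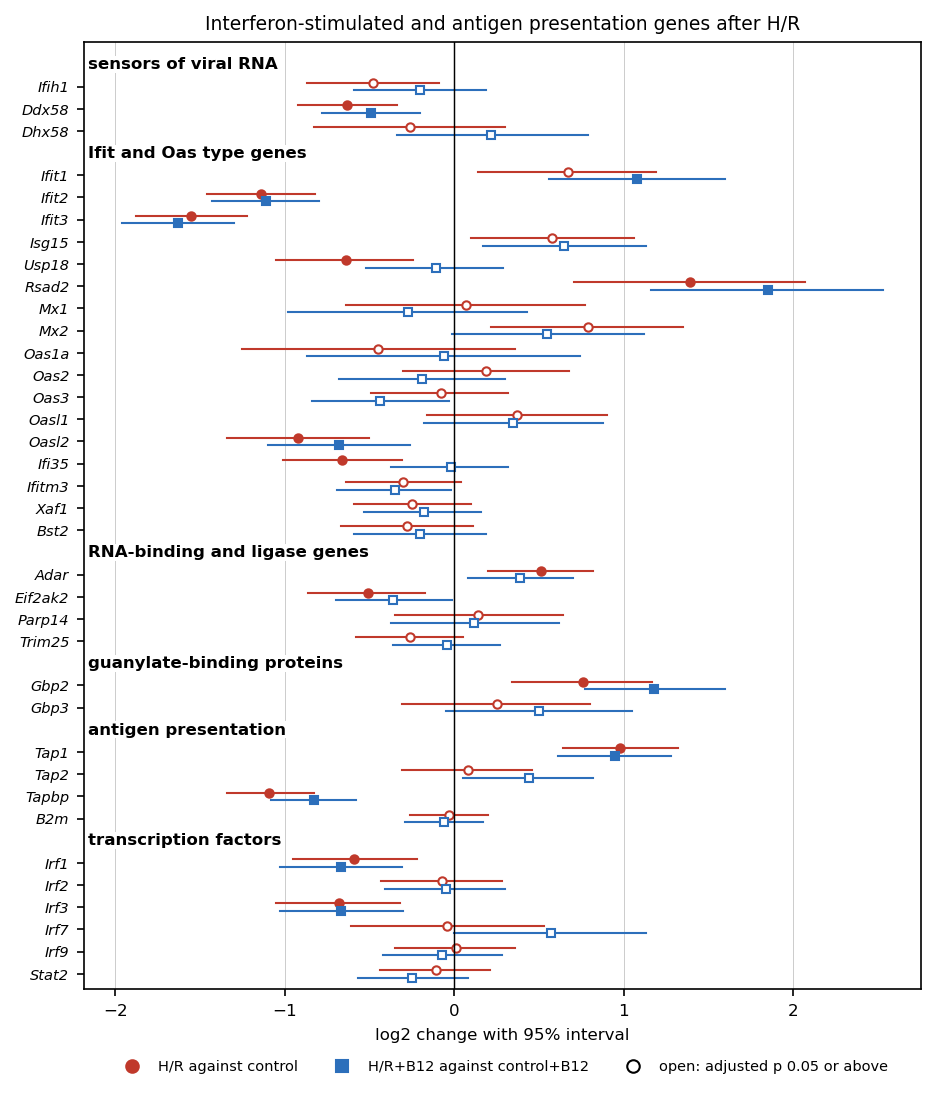
Log2 change (x axis) of each of the 36 measured members by role (rows), for H/R against control (red circles) and H/R+B12 against control+B12 (blue squares), with 95% intervals of the limma fit; filled symbols have an adjusted p under 0.05. Ifit2, Ifit3 and Tapbp lie near or below -0.8 and Tap1 lies above 0.9 in both comparisons, Rsad2 is plotted at fitted values that rest on a control signal below the negative controls, while B2m, Irf2 and Irf9 lie close to 0.

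Among the 17 Ifit and Oas type genes, effectors made in quantity by interferon-treated cells, 1 rose, 5 fell and 11 did not pass, with a median change of -0.25. The share called was 35.3%, beside 17.6% of all probe sets. Ifit3, which binds other Ifit proteins, read 15.06, 15.70, 15.81 and 15.72 in the 4 control arrays and 14.02, 14.15, 13.90 and 14.02 after H/R. No H/R array reached the lowest control array, which was replicate 1. The change was -1.55 ± 0.16 (SE, n = 4 against 4), a 2.93-fold lower signal, with a limma adjusted p of 3.91e-06. Only 71 of 22206 probe sets had a lower log2 change.

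Ifit2, a relative that binds AU-rich RNA, read 13.03, 13.51, 13.56 and 13.71 in control and 12.33, 12.37, 12.32 and 12.22 after H/R. The groups did not overlap, and the H/R arrays lay within 0.15 of each other, closer than the control arrays. Its change was -1.14 ± 0.15, a 2.21-fold lower signal (limma adjusted p = 4.9e-05).

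Ifit1, which binds viral RNA that lacks the host cap methylation, went the other way in every array but missed the threshold. It read 6.52, 6.60, 6.91 and 6.88 in control and 7.52, 7.43, 7.66 and 6.96 after H/R, a change of 0.67 ± 0.25 with a limma adjusted p of 0.0781. The groups did not overlap, and replicate 4 of H/R sat just above the highest control. Ifit1 passed at 0.0442 without H/R replicate 4 and at 0.00773 without control+B12 replicate 2, which enters its shared variance. Ifit2 and Ifit1 are the ends of a run of 6 protein-coding genes on chromosome 19 in RefSeq order, namely Ifit2, Ifit3, Ifit1bl1, Ifit3b, Ifit1bl2 and Ifit1. Ifit3b, a near-identical copy of Ifit3 that is no member and was looked up after the values were seen, fell by 1.87 on the log2 scale, and probes may not separate these copies.

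Rsad2 (viperin), an enzyme that makes a chain-terminating nucleotide, rose from a control signal at background. It read 5.02, 5.67, 5.00 and 4.64 in control and 6.07, 6.64, 6.68 and 6.50 after H/R, with no overlap. The fitted change was 1.39 ± 0.32 with a limma adjusted p of 0.00565. All 4 control arrays lay below the negative control median of their own array, and 3 of the 4 H/R arrays lay above theirs. The H/R group mean was 1.46-fold above the mean negative control median of the control arrays (5.92). No error was computed for this value, and the negative control medians of the H/R arrays were 5.88 to 6.23.

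Oasl2, an oligoadenylate synthetase-like protein, read 9.21, 8.64, 8.96 and 9.11 in control and 7.87, 8.41, 8.25 and 7.70 after H/R. Every H/R array was below every control array, and the change was -0.92 ± 0.20 (limma adjusted p = 0.00316). Ifi35, a leucine zipper protein induced by interferon, read 7.59, 7.83, 7.88 and 7.58 in control and 7.32, 7.18, 7.17 and 6.58 after H/R. Its groups were also apart, with replicate 4 of H/R the lowest, and it fell by 0.66 on the log2 scale (SE 0.16, limma adjusted p = 0.0092).

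Usp18, the protease that removes Isg15 from proteins and dampens the interferon receptor, read 9.82, 9.79, 10.02 and 9.93 in control. After H/R its arrays read 8.77, 9.23, 9.33 and 9.67, all below control but widely spread. The change was -0.64 ± 0.19 with a limma adjusted p of 0.0277. That call was lost without control replicate 3 or 4 or H/R replicate 1 or 2, with adjusted p of 0.0735, 0.0596, 0.101 and 0.0596, and at 0.0669 with arrays centred on their medians.

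The remaining 11 genes of this type did not pass. Isg15, the ubiquitin-like modifier, had means of 5.18 ± 0.35 (SD, n = 4) in control and 5.76 ± 0.45 after H/R, a change of 0.58 with overlapping arrays. The control mean of Isg15 lay below 5.72. Mx2 had means of 5.82 ± 0.67 and 6.61 ± 0.20, with all H/R arrays above control and a limma adjusted p of 0.0516. The control mean of Mx2 lay below the mean negative control median of the control arrays (5.92). Its control replicate 2 read 4.83, below the negative control median of that array (5.88), so the size of the change is uncertain. Mx2 passed without control replicate 1 or 3 or H/R+B12 replicate 1, at 0.045, 0.0273 and 0.0419. Ifitm3, a membrane protein that blocks viral entry, changed by -0.30, Bst2 (tetherin) by -0.28 and Xaf1 by -0.25, all with overlapping arrays. Oas2, Oas3, Oasl1, Oas1a and Mx1 had changes between -0.45 and 0.37 at signals below 5.72, so no direction can be read from them.

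**Figure D2:**
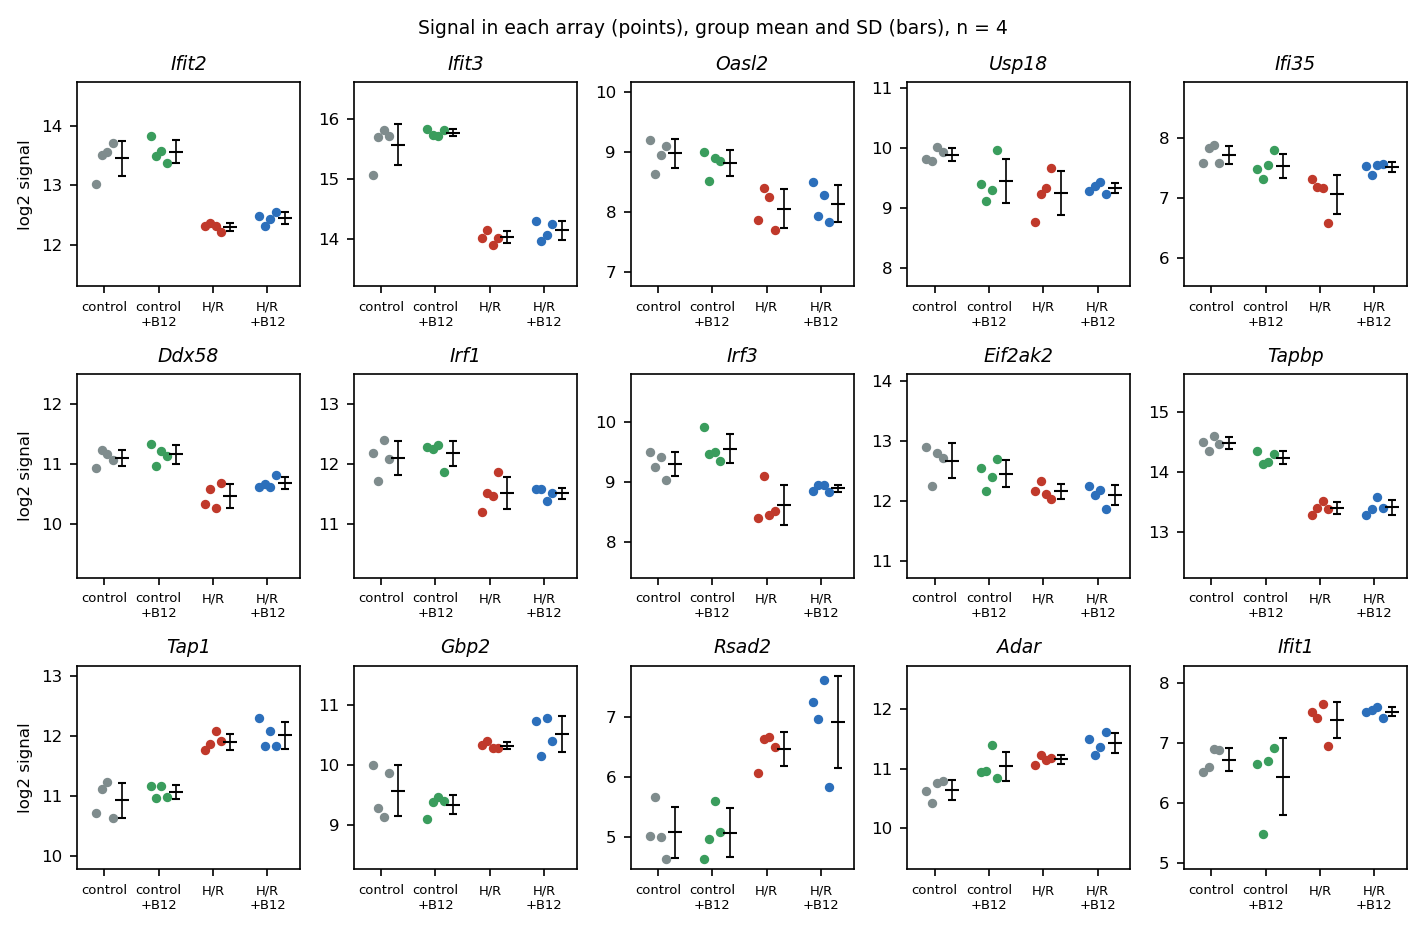
Log2 signal (y axis) of 15 members in each of the 16 arrays, by group (x axis); points are arrays, and the bars beside them give the group mean and SD (n = 4). Each panel has its own y axis, which does not start at 0. In Ifit2, Ifit3, Tapbp, Tap1 and Ifit1 both H/R groups are separate from the control without B12, whereas Usp18 and Ifi35 differ between H/R and control without B12 and overlap with B12.

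Of the 3 sensors, 1 fell and 2 did not pass, 33.3% called beside 17.6% of all probe sets. Ddx58 (RIG-I), the sensor of short double-stranded RNA ends, read 10.94, 11.24, 11.16 and 11.06 in control and 10.33, 10.59, 10.26 and 10.69 after H/R. The groups did not overlap, and the change was -0.63 ± 0.14 (limma adjusted p = 0.00336). Ifih1 (MDA5), the sensor of long double-stranded RNA, changed by -0.48 ± 0.18, with overlapping arrays and a limma adjusted p of 0.0914. It passed at 0.0171 without H/R replicate 3. Dhx58 had little signal, with means of 3.80 in control and 3.54 after H/R.

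Of the 4 genes of RNA-binding and ligase proteins, Adar rose and Eif2ak2 fell, 50% called beside 17.6% of all probe sets. Adar edits adenosine to inosine in double-stranded RNA, and its arrays read 10.62, 10.42, 10.76 and 10.79 in control and 11.06, 11.23, 11.15 and 11.18 after H/R. The groups were apart, with a change of 0.51 ± 0.15 (limma adjusted p = 0.0217). Without control replicate 2 or H/R replicate 2 the adjusted p was 0.0745 or 0.0571. Eif2ak2 (PKR), the kinase that halts translation on binding double-stranded RNA, read 12.90, 12.24, 12.80 and 12.72 in control and 12.16, 12.33, 12.11 and 12.03 after H/R. Control replicate 2 lay among the H/R arrays, so the groups overlapped, and the change was -0.51 ± 0.16 (limma adjusted p = 0.0384). This call was lost with any of 6 arrays left out, namely replicates 1, 3 and 4 of control (0.11, 0.101 and 0.0821) and of H/R (0.0735, 0.0836 and 0.0979). It was lost too with only the 2 groups fitted (0.0789) and with arrays centred on their medians (0.0999). Trim25, the ligase that activates Ddx58, and Parp14 did not pass, at -0.26 and 0.14.

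Of the 2 guanylate-binding proteins, GTPases that attack the vacuoles of intracellular microbes, Gbp2 rose, 50% called beside 17.6% of all probe sets. It read 10.00, 9.28, 9.14 and 9.87 in control and 10.33, 10.41, 10.29 and 10.28 after H/R. The control arrays spread over almost 1 log2 unit and the H/R arrays over little more than 0.1, without overlap. The change was 0.76 ± 0.19, a 1.69-fold higher signal (limma adjusted p = 0.0113). Gbp3 changed by 0.25 ± 0.26 and did not pass.

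The 4 genes of antigen presentation parted: Tap1 rose, Tapbp fell, and Tap2 and B2m did not pass, for a median change of 0.03. The share called was 50%, beside 17.6% of all probe sets. Tap1 and Tap2 form the transporter that carries peptides into the endoplasmic reticulum, Tapbp (tapasin) bridges it to class I molecules, and B2m is their light chain. Tap1 read 10.72, 11.12, 11.23 and 10.64 in control and 11.77, 11.86, 12.09 and 11.91 after H/R, apart in every array. Its change was 0.98 ± 0.16, a 1.97-fold higher signal (limma adjusted p = 0.000334). Tap2 had means of 7.90 ± 0.13 (SD, n = 4) in control and 7.98 ± 0.11 after H/R, a change of 0.08 with a 95% interval of -0.31 to 0.46.

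Tapbp read 14.49, 14.35, 14.59 and 14.47 in control and 13.27, 13.39, 13.52 and 13.38 after H/R. The gap between the groups was wider than the range of either group. Its change was -1.09 ± 0.12, a 2.12-fold lower signal (limma adjusted p = 1.04e-05), and 414 of 22206 probe sets had a lower log2 change. B2m had means of 18.38 ± 0.11 in control and 18.36 ± 0.06 after H/R, a change of -0.03 with an interval of -0.26 to 0.20.

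Of the 6 transcription factors none rose, Irf3 and Irf1 fell, and the groups of both overlapped. The share called was 33.3%, beside 17.6% of all probe sets. Irf3, the factor that viral sensors activate, read 9.50, 9.26, 9.42 and 9.04 in control and 8.41, 9.11, 8.45 and 8.52 after H/R. Replicate 2 of H/R lay within the control range and the other 3 below it, and the change was -0.68 ± 0.17 (limma adjusted p = 0.01). Irf1, the factor that carries much of the interferon-gamma response, read 12.18, 11.71, 12.39 and 12.08 in control and 11.20, 11.51, 11.46 and 11.86 after H/R. Replicate 4 of H/R was above control replicate 2, and the change was -0.59 ± 0.17 (limma adjusted p = 0.0242). Leaving out any of 5 arrays ended the Irf1 call, namely control replicates 1 and 3 (0.0586 and 0.0855) and H/R replicates 1, 2 and 3 (0.0862, 0.0505 and 0.0579), as did fitting the 2 groups alone (0.072) and centring (0.0546).

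The partners of the interferon-stimulated factor complex did not pass. Stat2 changed by -0.11 with an interval of -0.44 to 0.21, and Irf9 by 0.01 with an interval of -0.35 to 0.36. Irf2, the antagonist of Irf1, changed by -0.07. Irf7, the factor that amplifies interferon production, had means of 3.98 in control and 3.94 after H/R, below 5.72.

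The same comparison was made with B12 in the medium throughout. In H/R+B12 against control+B12, 4 members rose and 7 fell, and 25 did not pass. With arrays centred on their medians the counts were 7 and 5. The 11 calls are 30.6% of the members, beside 18.7% of all probe sets, of which 9.04% were higher and 9.61% lower. The median change was -0.07 over the members and -0.04 over all probe sets, and the arrays did not overlap for 15 of the 36, beside 21.5% of all probe sets. Gbp2, Rsad2 and Tap1 rose in both comparisons, which is 75% of either list of risers. Ddx58, Ifit2, Ifit3, Irf1, Irf3, Oasl2 and Tapbp fell in both, which is 70% of those that fell without B12 and 100% of those that fell with it. The comparisons have no array in common.

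Ifit3 read 15.83, 15.73, 15.71 and 15.81 in control+B12 and 14.30, 13.96, 14.06 and 14.25 in H/R+B12. The groups were apart, and the change of -1.63 ± 0.16 (limma adjusted p = 2.28e-06) lay within 1 SE of that without B12. Tapbp read 14.35, 14.13, 14.17 and 14.30 in control+B12 and 13.27, 13.38, 13.58 and 13.40 in H/R+B12, again apart, for a change of -0.83 ± 0.12 (limma adjusted p = 0.000117). Ifit2 changed by -1.11 ± 0.15, Irf1 by -0.67 ± 0.17 and Irf3 by -0.67 ± 0.17, all with H/R+B12 arrays below every control+B12 array. Oasl2 changed by -0.68 ± 0.20 and Ddx58 by -0.49 ± 0.14, also without overlap.

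Those last calls were less firm. Oasl2 was lost without control+B12 replicate 1 or 3 (0.0655 and 0.0532), without H/R+B12 replicate 2 or 4 (0.0678 and 0.0754) and with centring (0.0536). Ddx58 was lost without control+B12 replicate 1 (0.0594) and with centring (0.0586).

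Among the genes that rose, Tap1 read 11.17, 10.96, 11.17 and 10.98 in control+B12 and 12.31, 11.84, 12.08 and 11.83 in H/R+B12. The groups were apart, with a change of 0.95 ± 0.16 (limma adjusted p = 0.000448). Gbp2 read 9.10, 9.39, 9.46 and 9.40 in control+B12 and 10.74, 10.15, 10.78 and 10.41 in H/R+B12, a change of 1.18 ± 0.19 (limma adjusted p = 0.000374) with no overlap. Rsad2 read 4.63, 4.97, 5.61 and 5.09 in control+B12 and 7.26, 6.97, 7.62 and 5.84 in H/R+B12. Its groups were apart, but replicate 4 of H/R+B12 was much lower than the other 3. The fitted change was 1.85 ± 0.32 (limma adjusted p = 0.00062). The H/R+B12 mean was 2.03-fold above the mean negative control median of the control+B12 arrays (5.90), with no error computed.

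Ifit1 passed here and not without B12. It read 6.65, 5.49, 6.71 and 6.92 in control+B12 and 7.53, 7.55, 7.61 and 7.42 in H/R+B12. Control+B12 replicate 2 was the lowest of all 16 arrays, and the change was 1.08 ± 0.25 (limma adjusted p = 0.00499). Its change stayed between 0.76 and 1.24 over the alternative settings. The difference of the Ifit1 change from that without B12 was 0.41 ± 0.35 and did not pass (limma adjusted p = 0.987).

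Adar, Usp18, Ifi35 and Eif2ak2 passed without B12 and not with it. Their changes with B12 were 0.39 for Adar, -0.11 for Usp18, -0.02 for Ifi35 and -0.36 for Eif2ak2. For none of the 4 did the difference between the comparisons pass, so the H/R changes with and without B12 are not shown to differ. Adar passed with B12 at 0.0211 without control+B12 replicate 3, as did Tap2 at 0.022. Isg15 changed by 0.65 ± 0.23 with B12, with no overlap and a limma adjusted p of 0.0571. Its means of 4.99 in control+B12 and 5.64 in H/R+B12 both lay below 5.72, so no direction can be read from it. It passed without control replicate 2, H/R replicate 4 or H/R+B12 replicate 3, at 0.0445, 0.0374 and 0.0332.

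Adding B12 was tested directly in both states, to ask whether the vitamin alters these genes. In H/R+B12 against H/R, 0 of 36 members passed, as did 0% of all probe sets. At an unadjusted p under 0.05 there was 1 member, beside 4.55% of all probe sets, and the arrays did not overlap for 2 members, beside 2.87%. In control+B12 against control 0 of 36 members and 0% of probe sets passed, with 2 members at an unadjusted p under 0.05, beside 5.76%, and 1 member whose arrays did not overlap, beside 2.87%. The interaction, the difference between the H/R changes with and without B12, also gave 0 of 36 members and 0% of probe sets, with 1 member at an unadjusted p under 0.05, beside 4.82%.

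**Figure D3:**
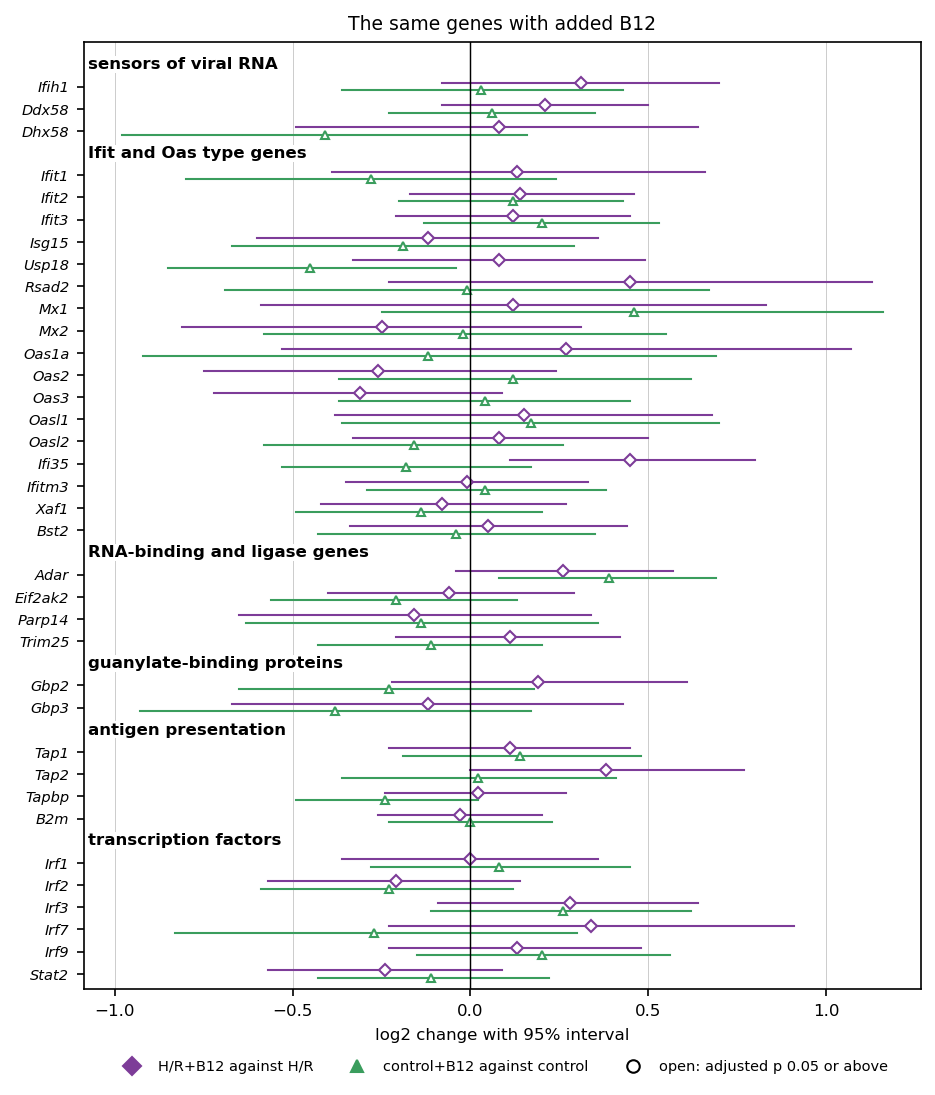
Log2 difference (x axis) of each of the 36 members by role (rows) with added B12, for H/R+B12 against H/R (purple diamonds) and control+B12 against control (green triangles), with 95% intervals of the limma fit. All symbols are open, since 0 of 36 members passed in either comparison, and the differences lie between -0.45 and 0.46.

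The member with the smallest p was Ifi35. It read 7.32, 7.18, 7.17 and 6.58 after H/R and 7.54, 7.39, 7.56 and 7.57 after H/R+B12, with every B12 array higher. The difference was 0.45 ± 0.16 (limma adjusted p = 1), and its interaction was 0.63 ± 0.23 (limma adjusted p = 0.972). In control+B12 Ifi35 read 7.48, 7.32, 7.55 and 7.81, overlapping control.

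Adar had the smallest p in normal culture. It read 10.95, 10.96, 11.39 and 10.84 in control+B12, all above the 4 control arrays given before, a difference of 0.39 ± 0.15 (limma adjusted p = 0.823). Usp18 read 9.40, 9.11, 9.30 and 9.97 in control+B12, with replicate 4 inside the control range and the other 3 below it, a difference of -0.45 ± 0.19 (limma adjusted p = 0.846). Tap2 was higher in every H/R+B12 array than in every H/R array, at 8.36 ± 0.19 (SD, n = 4) against 7.98 ± 0.11, without passing (adjusted p = 1).

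A p that misses the threshold does not show that B12 has no effect, and the intervals bound its size. For Ifit3 the difference H/R+B12 minus H/R was 0.12 with a 95% interval of -0.21 to 0.45. Tapbp had 0.02 with an interval of -0.24 to 0.27, Tap1 0.11 with -0.23 to 0.45, and B2m -0.03 with -0.26 to 0.20. Rsad2 was bounded less tightly, with 0.45 and an interval of -0.23 to 1.13.

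The other genes of the pathway were taken from lists written from general knowledge, with earlier results of these data known. The shares below describe these lists, were not matched for signal, and test nothing. Of the 87 measured, 16 rose and 14 fell in H/R against control, and 17 rose and 12 fell in H/R+B12 against control+B12. The shares called were 34.5% and 33.3%, beside 17.6% and 18.7% of all probe sets. Traf3, Ripk1, Ifi47, Gbp5, Gbp6 and Trim34a were not analysed here.

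Upstream of the members, 0 of 9 interferon genes passed, and all 9 had group means below 5.72. Ifnb1, the first interferon made after sensing, read 3.47, 3.28, 3.37 and 3.23 in control and 3.23, 3.03, 3.21 and 3.63 after H/R. At this signal a difference in interferon RNA was not detectable.

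Of 9 interferon receptor and kinase genes, 6 rose after H/R and 1 fell, 77.8% beside 17.6% of all probe sets, and the counts were the same with B12. The 17.6% includes many probe sets at background signal, and the shares were not matched for signal. Ifngr1, the ligand-binding chain of the interferon-gamma receptor, had means of 10.24 ± 0.17 (SD, n = 4) in control and 11.77 ± 0.20 after H/R. The groups were apart by over 1 log2 unit, with a change of 1.53 ± 0.15 (limma adjusted p = 3.79e-06). Ifngr2 changed by 0.75, Ifnar1 by 0.81, Ifnar2 by 1.02 and Il10rb, a chain of the interferon-lambda receptor, by 0.62, all with H/R arrays above every control array. Jak1, the kinase shared by these receptors, read 10.89, 10.61, 10.54 and 10.72 in control and 11.84, 11.75, 11.40 and 11.50 after H/R, a change of 0.93 ± 0.15 (limma adjusted p = 0.000252). Tyk2, its partner at the type I receptor, fell by 0.68 on the log2 scale (SE 0.21, limma adjusted p = 0.0316) with overlapping arrays. Jak2 and Ifnlr1 did not pass, at 0.25 and -0.09.

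Of 10 genes of sensor signalling, Trim21 and Ticam1 rose and Tlr3, Ikbke and Mavs fell, 50% called beside 17.6% of all probe sets. Tlr3, the endosomal receptor for double-stranded RNA, read 11.39, 11.65, 11.33 and 11.53 in control and 9.97, 10.38, 9.82 and 9.90 after H/R. Its groups were far apart, with a change of -1.46 ± 0.15 (limma adjusted p = 3.6e-06). Mavs, the adaptor of Ddx58 and Ifih1, read 12.83, 13.17, 12.96 and 13.35 in control and 12.18, 12.50, 12.12 and 12.13 after H/R, a change of -0.84 ± 0.18 (limma adjusted p = 0.00255). Ikbke, a kinase that activates Irf3, changed by -0.88 ± 0.21, while Tbk1, its relative, changed by 0.24 and did not pass. With B12 Tlr3, Ikbke and Mavs fell again and none of the 10 rose, 30% called beside 18.7% of all probe sets.

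A list of 12 genes held brakes on interferon signalling together with Uba7 and Ube2l6, which attach Isg15 to proteins and are not brakes of the receptor. Socs3, Ptpn2 and Pias1 rose and Trim30a and Ube2l6 fell, in both comparisons. The share called was 41.7% in both, beside 17.6% and 18.7% of all probe sets. Trim30a fell from a mean of 6.85 to 5.59 without B12 and from 6.69 to 5.38 with it. Its H/R and H/R+B12 means lay below the mean negative control medians of those arrays (6.09 and 5.97), so the size of its change is uncertain. Socs3, an inhibitor of cytokine receptor kinases, read 6.32, 4.74, 5.75 and 5.80 in control and 7.49, 7.87, 8.49 and 7.99 after H/R. The groups were apart, with a fitted change of 2.31 ± 0.32 (limma adjusted p = 9.25e-05). In 3 of the 4 control arrays Socs3 lay below the negative control median of the array, so the size of its change is uncertain. Ptpn2, a phosphatase that acts on Jak1, changed by 0.91 ± 0.15. Ube2l6, the enzyme that passes Isg15 to its targets, read 11.34, 11.25, 11.37 and 11.35 in control and 10.33, 10.48, 10.49 and 10.31 after H/R, a change of -0.93 ± 0.12 (limma adjusted p = 3.84e-05). Socs1 changed by -0.03 and did not pass, at a signal below 5.72.

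**Figure D4:**
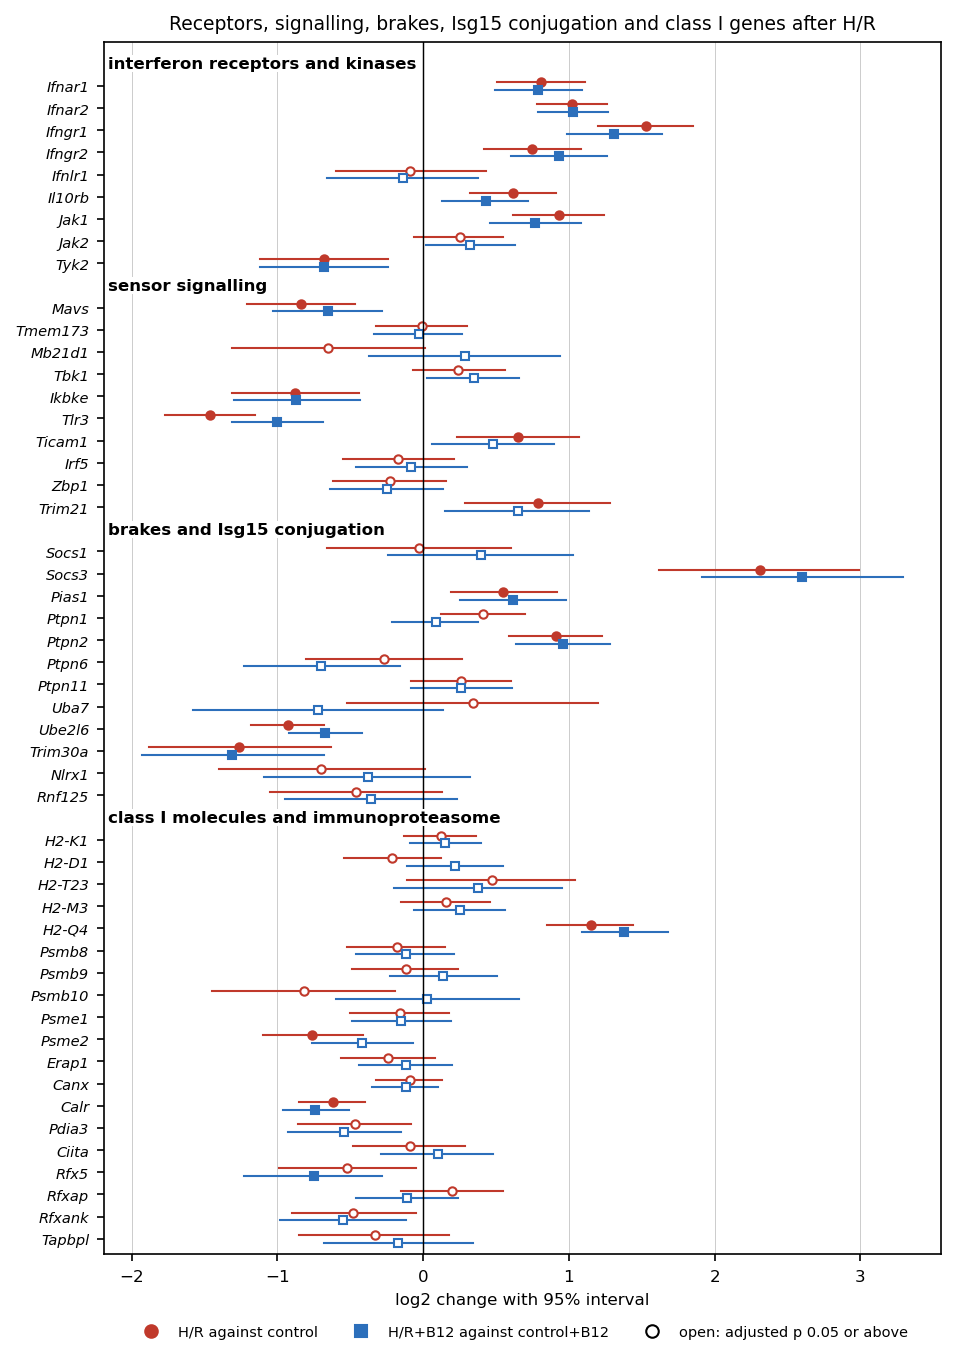
Log2 change (x axis) of receptor, sensor signalling, brake and Isg15 conjugation, and class I genes (rows), for H/R against control (red circles) and H/R+B12 against control+B12 (blue squares), with 95% intervals of the limma fit; filled symbols have an adjusted p under 0.05. Of 9 receptor and kinase genes 6 are filled to the right of 0, while H2-K1, Psmb8 and Psmb9 lie close to 0.

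Of 19 genes of class I molecules and the immunoproteasome, 1 rose, 2 fell and 16 did not pass, 15.8% beside 17.6% of all probe sets. H2-Q4, a non-classical class I gene, read 11.95, 11.88, 12.06 and 11.85 in control and 13.02, 12.91, 13.38 and 13.00 after H/R, a change of 1.15 ± 0.14 (limma adjusted p = 2.13e-05) with no overlap. Class I genes are close in sequence, and probes may not separate them. The classical genes H2-K1 and H2-D1 did not pass, at 0.12 with an interval of -0.13 to 0.36 and -0.21 with an interval of -0.54 to 0.12. Calr, a chaperone of class I loading, changed by -0.62 ± 0.11 and Psme2, a proteasome activator, by -0.76 ± 0.16, and both fell. With B12 H2-Q4 rose, and Calr and Rfx5 fell, 15.8% called beside 18.7% of all probe sets.

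Tap1 shares its start region with Psmb9, an immunoproteasome subunit on the opposite strand of chromosome 17. Their full RefSeq start windows, which are longer than the 250 bases used above, overlap by 275 bases. Psmb9 read 10.13, 9.64, 9.91 and 9.65 in control and 9.57, 9.60, 9.82 and 9.84 after H/R, with overlapping groups. Its change was -0.12 with an interval of -0.49 to 0.24, beside 0.98 with an interval of 0.64 to 1.32 for Tap1.

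Of 28 other interferon-stimulated genes, 4 were called higher and 6 lower in H/R cells, with counts of 7 and 4 in the B12 groups. These are 35.7% and 39.3%, beside 17.6% and 18.7% of all probe sets. Cxcl10, a chemokine that attracts T cells, read 7.87, 7.91, 8.19 and 7.47 in control and 10.46, 10.45, 10.74 and 10.53 after H/R. The groups were more than 2 log2 units apart, with a change of 2.68 ± 0.20 (limma adjusted p = 1.97e-07). Irgm1, a GTPase of autophagy induced by interferon-gamma, changed by 1.22 ± 0.14, also without overlap. Zc3hav1 (ZAP), which binds CpG-rich viral RNA, changed by 0.55 and Ifi204, a DNA sensor, by 0.56. Pml and Sp100, which build the nuclear body, fell together, with changes of -0.93 ± 0.15 and -0.90 ± 0.15. Lgals3bp, Ifitm2, Gbp7 and Parp12 fell too, with changes of -0.94, -0.74, -0.70 and -0.47. With B12, Cxcl10, Irgm1, Ifi204, Isg20, Rtp4, Dtx3l and Cmpk2 rose, and Sp100, Pml, Lgals3bp and Ifitm2 fell.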

How the data were processed

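RNA of 16 samples was measured on 1 array each. The deposited table holds log2 signal per probe set, which the authors made with robust multi-array averaging (RMA) in Affymetrix Expression Console, per the submitters' processing notes. The software versions were not given in the sources consulted. Of 28846 features, 6640 controls were left out and 22206 probe sets were tested. The platform annotation named 1 gene for 19572 probe sets, several for 0 and none for 2634. All 36 members measured matched a RefSeq symbol and gene ID, and none had several probe sets.

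All arrays were fitted together as 4 groups with limma 3.58.1 in R 4.3.3 (prior degrees of freedom 4.23, total 16.2), without further normalization. P-values are two-sided and adjusted by Benjamini-Hochberg over the 22206 probe sets, with a threshold of 0.05. The fit was tested on simulated data. Replicate numbers were not taken to pair samples. Lists are described by counts and medians. Precision is limited by the 4 arrays of each group. Members and lists were chosen with earlier results of these data known. Every member is named, with array values for those past the threshold with the largest changes in each role. The other pathway genes named had passed, or were fixed by name. Alternatives were a replicate block, fits of 2 groups, quantile normalization, centring on array medians, leaving out the dimmest 25% of probe sets, weights per array, robust variances that follow intensity, and leaving out each array. Promoters came from RefSeq (GRCm38.p6), and plots were drawn with matplotlib 3.10.9 in Python 3.11.15.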

Additional observations from a re-analysis of the deposited data

Results flagged for a closer look

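In 7 of 144 sets of 4 arrays (36 members in 4 groups), 1 array stood apart by Dixon's measure, the gap to the nearest array divided by the range. Chance alone gives about 5% of such sets. Ifit3 in control replicate 1 read 15.06 against 15.70 to 15.81 in the other 3 arrays, a measure of 0.854. Irf3 in H/R replicate 2 read 9.11 against 8.41 to 8.52, a measure of 0.838. Irf1 in control+B12 replicate 4 read 11.86 against 12.25 to 12.31, a measure of 0.877. Trim25 in H/R+B12 replicate 4 read 10.57 against 10.11 to 10.13, a measure of 0.944. Stat2 in the same array read 10.56 against 10.81 to 10.85, a measure of 0.879. B2m in H/R replicate 3 read 18.44 against 18.32 to 18.34, a measure of 0.864. Dhx58 in control replicate 1 read 4.20 against 3.63 to 3.72, a measure of 0.848, at a signal below the negative controls. The calls of Ifit3 and Irf3 in H/R against control held without these arrays.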

How the results depend on the processing

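Under 23 alternative settings no member that passed changed direction, and 10 of 14 calls in H/R against control and 9 of 11 in H/R+B12 against control+B12 held under all of them. With arrays centred on their medians, 7 members rose and 5 fell in H/R+B12 against control+B12 instead of 4 and 7; the cause was not tested. Centring also moved the share of higher calls among all probe sets called from 46% to 56.4% without B12 and from 48.5% to 60.1% with it, and gave 5 members higher and 7 lower in H/R against control. Leaving out 1 array gave 3 to 5 members higher and 7 to 10 lower in H/R against control, and 4 to 6 and 5 to 7 with B12. Deviations of arrays from their group means correlated at -0.072 to 0.0786 between samples of the same replicate number. The numbers were therefore not taken as pairs. The block gave 5 higher and 9 lower in H/R against control, 4 and 7 with B12, and 0 for B12 itself and the interaction. With the block Eif2ak2 was lost (0.0508) and Mx2 passed (0.0414) in H/R against control. Mx2 passed in H/R against control under 9 settings and Ifit1 under 5, and Isg15 passed with B12 under 7. Averaging several probe sets of a gene was not run, since no member had several, nor was the interaction with 2 groups only. Signals below the negative control median limit what can be said of Rsad2, Isg15, Mx2, Socs3, Trim30a and the 7 dim members.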
